A study of Mus musculus with 4 samples.

Results

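The receptor tyrosine kinases Flt3, Kit, Pdgfra and Pdgfrb and their ligands Flt3l, Kitl, Pdgfa and Pdgfb were followed in mouse cortical neuron cultures after knockdown of calmodulin and after knockdown with a resistant calmodulin added back. The 8 genes were taken by symbol from 19938 genes that had a probe set with exactly 1 gene symbol, and each of the 8 was read by 1 probe set. The group was chosen from measured values of the same samples: Flt3 stood far above control in the knockdown and Kit far below control in the rescue, and their relatives and ligands were added to them. The values of Flt3 in the knockdown and of Kit in the rescue are therefore given as descriptions without a test, as are the differences of both genes between knockdown and rescue.

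The 4 receptors belong to the class III receptor tyrosine kinases, which dimerise when a ligand binds outside the cell and then phosphorylate each other inside it. The phosphorylated receptors recruit adaptors and enzymes that feed the RAS-MAPK, phosphoinositide 3-kinase and STAT routes. Flt3 and Kit are best known from blood progenitors, and Kit also from melanocytes, germ cells and cerebellar interneurons. In brain, Pdgfra is a defining receptor of oligodendrocyte precursors and Pdgfrb of pericytes, the mural cells of capillaries.

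The knockdown group had 2 samples of cultures infected with lentivirus carrying shRNAs against calmodulin, the main calcium sensor protein of neurons. The rescue group had 2 samples that received the same shRNAs with a wild-type calmodulin that they do not target, and each sample was read as a ratio to a culture of the same repeat that had received control lentivirus. All cultures came from postnatal day 0 pups of a mixed SV129 and C57BL/6 background that were either Syt1-deficient or wild type (the labels do not tie an array to a genotype), and were infected after 5 days in vitro and lysed after 14 to 15 days. The medium held serum, B27 and Ara-C, a drug that kills dividing cells. Since the labels do not state separate animals or cultures for the 2 repeats, the spread behind every p-value here may be a technical one.

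All values are log2 of the deposited ratio, so 0 is equality with control. The same control array of a repeat stands under both groups, and ratios carry no level, so how strongly a receptor was expressed, and whether markers of neurons were present, could not be read from them. Calm2 and Calm3, which the shRNAs target, lay below control in every sample, with values from -2.40 to -1.08 in the knockdown, against -3.55 to -0.84 in the rescue. It is not stated whether the added calmodulin is read by these probe sets. Over all genes the log2 ratios had a standard deviation of 0.242 and 0.349 in knockdown repeats 1 and 2, against 0.243 and 0.232 in rescue repeats 1 and 2, so knockdown repeat 2 was the widest. In bulk RNA, fewer cells of a type and less RNA per cell cannot be told apart.

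Flt3 and Kit, the members farthest from control, lie on chromosome 5, as Pdgfra and Pdgfa do, and the 300 bases around their start sites are shown so that their promoters can be read side by side. They are the RefSeq sequences of the assembly GRCm38.p6, from 250 bases before to 50 after the start, at chr5:147400440-147400739 on the minus strand for Flt3 and at chr5:75574737-75575036 on the plus strand for Kit, at the first of its 2 listed starts. Capitals mark matches, on either strand, to an E-box (CACGTG), the core of a cyclic AMP response element (TGACG) or a GC box (GGGCGG).
Flt3 promoter: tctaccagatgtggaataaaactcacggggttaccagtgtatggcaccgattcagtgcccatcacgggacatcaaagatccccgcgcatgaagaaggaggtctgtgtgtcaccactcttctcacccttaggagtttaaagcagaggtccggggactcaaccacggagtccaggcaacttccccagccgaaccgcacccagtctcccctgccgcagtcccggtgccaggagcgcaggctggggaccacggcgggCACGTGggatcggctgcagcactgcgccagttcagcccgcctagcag
Kit promoter: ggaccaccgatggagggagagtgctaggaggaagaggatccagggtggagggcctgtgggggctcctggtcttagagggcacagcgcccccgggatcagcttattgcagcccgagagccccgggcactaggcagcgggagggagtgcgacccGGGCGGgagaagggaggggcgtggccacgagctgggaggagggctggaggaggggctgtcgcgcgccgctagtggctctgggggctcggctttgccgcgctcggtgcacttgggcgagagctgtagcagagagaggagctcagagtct
The Flt3 window held an E-box, which 7.24% of 27025 promoters of the same length held, and no GC box or cyclic AMP core. The Kit window held a GC box, which 35.9% of promoters held, and no E-box or cyclic AMP core. Neither held the core GGAAA bound by NFAT, a factor activated by calcineurin, which 61.3% of promoters held, or a TATA box (TATAAA, 14.2%). Both were rich in CpG, with 18 in Flt3 and 20 in Kit, against a median of 7. Of the 8 genes, 6 had a promoter in the table, and of these Pdgfra alone held the cyclic AMP core, which 21% of promoters held, while Kitl alone held a TATA box. These matches are descriptions of the letters and were not tied to the expression values.

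Flt3 stood far above control in the knockdown and lay near control in the rescue. Its log2 ratios were 1.21 and 1.48 in knockdown repeats 1 and 2, against 0.00 and 0.09 in rescue repeats 1 and 2. Both knockdown samples were high, both rescue samples were near control, and the groups did not overlap. The knockdown mean of 1.35 ± 0.19 (SD, n = 2) is 2.55-fold over control and ranked 10th from the top of 19938 genes. In the rescue Flt3 averaged 0.05 ± 0.06 (SD, n = 2), with a 95% interval from -0.24 to 0.33 (limma adjusted p = 0.957), and 76.5% of all genes lay at least as far from control. That p shares its control arrays with the knockdown ratios that chose Flt3. Within a repeat, where the shared control array cancels, the knockdown exceeded the rescue by 1.21 and 1.39.

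Flt3l, the only known ligand of Flt3, lay much closer to control than its receptor. It stood at 0.05 and 0.18 in the knockdown, against -0.23 and -0.22 in the rescue. Both knockdown samples lay just above control and both rescue samples below it, without overlap. The knockdown mean of 0.12 had a 95% interval from -0.15 to 0.38 (limma adjusted p = 0.660) and the rescue mean of -0.22 one from -0.49 to 0.05 (adjusted p = 0.722). The knockdown exceeded the rescue by 0.34 (95% interval -0.04 to 0.72, adjusted p = 0.813).

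Kit lay below control in all 4 samples, with or without the resistant calmodulin. Its log2 ratios were -0.45 and -1.25 in knockdown repeats 1 and 2, against -0.87 and -0.85 in rescue repeats 1 and 2. The knockdown samples lay on either side of the rescue samples, so the groups overlapped. In the knockdown the mean of -0.85 ± 0.57 (SD, n = 2), a ratio of 0.556, missed the threshold (limma adjusted p = 0.0939) and passed it with the repeat as a block (adjusted p = 0.0201), a fit that also takes out the spread of the control arrays. These ratios share their control arrays with the rescue ratios that chose Kit, so neither p is independent of that choice. It rested on repeat 2: the value was -1.25 without knockdown repeat 1 (adjusted p = 0.000301) and -0.45 without knockdown repeat 2 (adjusted p = 0.508). In the rescue the mean was -0.86 ± 0.01 (SD, n = 2), a ratio of 0.553, which ranked 13th from the bottom of 19938 genes. Between knockdown and rescue Kit differed by 0.42 in repeat 1 and by -0.40 in repeat 2, with a mean of 0.01.

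Kitl, the stem cell factor that binds Kit, stayed near control. It was at 0.24 and -0.14 in the knockdown, against 0.07 and 0.20 in the rescue, and the groups overlapped. Its mean of 0.05 in the knockdown (95% interval -0.26 to 0.36, limma adjusted p = 0.882) and of 0.13 in the rescue (-0.18 to 0.44, adjusted p = 0.867) did not pass the threshold. The knockdown and rescue means differed by -0.08 (95% interval -0.52 to 0.35, adjusted p = 1.00), with 0.17 in repeat 1 and -0.34 in repeat 2.

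**Figure D1:**
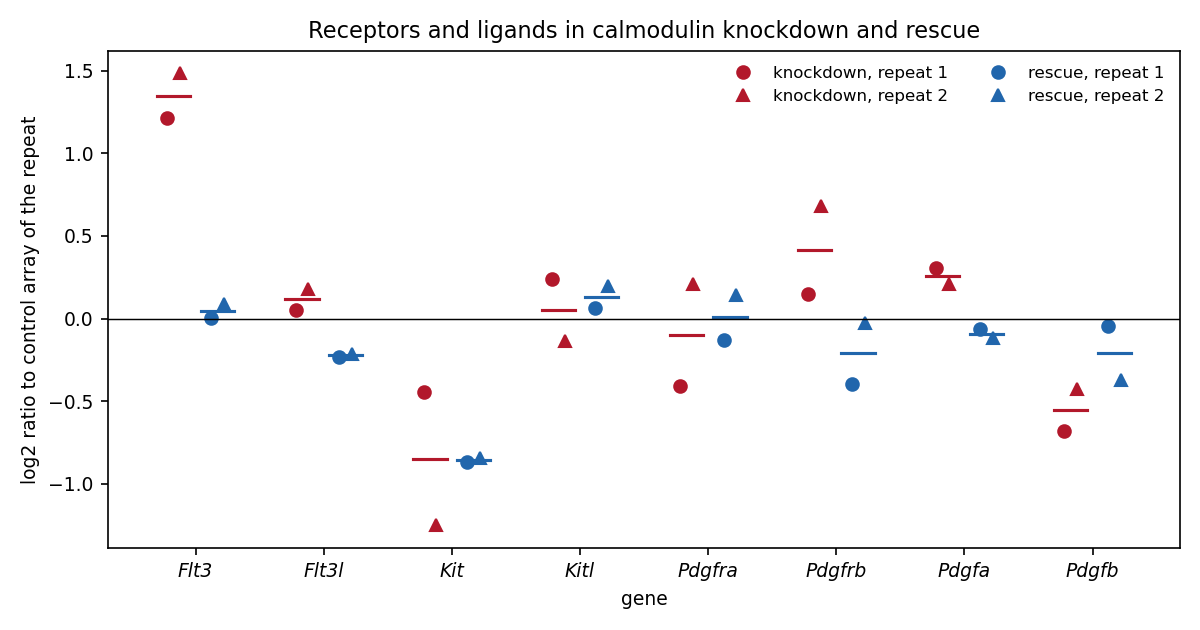
Log2 ratio to the control array of the same repeat for each receptor and ligand, with knockdown in red left of rescue in blue, repeat 1 as circles, repeat 2 as triangles and the group mean as a bar. Flt3 sits at 1.21 and 1.48 in the knockdown, against 0.00 and 0.09 in the rescue, and Kit is below 0 in all 4 samples.

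The 2 PDGF receptors lay apart in the knockdown, without a test of one gene against the other. Pdgfrb, the receptor of mural cells and fibroblasts, was at 0.15 and 0.68 in the knockdown, against -0.39 and -0.03 in the rescue. Both knockdown samples lay above both rescue samples. The knockdown mean was 0.42 ± 0.37 (SD, n = 2; limma adjusted p = 0.262), and it was 0.68 without knockdown repeat 1 (adjusted p = 0.0406) and 0.15 without knockdown repeat 2 (adjusted p = 0.946). The rescue mean was -0.21 ± 0.26 (SD, n = 2; limma adjusted p = 0.815). The difference between knockdown and rescue was steadier, at 0.54 in repeat 1 and 0.71 in repeat 2, with a mean of 0.63 and a 95% interval from 0.10 to 1.15. It did not pass over all genes (limma adjusted p = 0.587, and 0.121 with the repeat as a block).

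Pdgfra, the receptor of oligodendrocyte precursors, was at -0.41 and 0.21 in the knockdown, against -0.13 and 0.14 in the rescue. In each group repeat 1 lay below control and repeat 2 above it, and the groups overlapped. The means were -0.10 in the knockdown (95% interval -0.48 to 0.28, limma adjusted p = 0.801) and 0.01 in the rescue (-0.37 to 0.39, adjusted p = 0.994), and they differed by -0.11 (95% interval -0.64 to 0.43, adjusted p = 1.00).

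The PDGF ligands lay on opposite sides of control in the knockdown. Pdgfa, whose product binds Pdgfra and supports oligodendrocyte precursors, was at 0.31 and 0.21 in the knockdown, against -0.06 and -0.12 in the rescue. Pdgfb, whose product draws pericytes to vessels through Pdgfrb, was at -0.68 and -0.42 in the knockdown, against -0.05 and -0.37 in the rescue. Neither gene's groups overlapped, with the knockdown above the rescue for Pdgfa and below it for Pdgfb.

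Pdgfa averaged 0.26 ± 0.07 in the knockdown (SD, n = 2; limma adjusted p = 0.326) and -0.09 ± 0.04 in the rescue (SD, n = 2; adjusted p = 0.895). The knockdown exceeded the rescue by 0.37 in repeat 1 and 0.33 in repeat 2 (mean 0.35, 95% interval -0.03 to 0.73, adjusted p = 0.784). Pdgfb averaged -0.55 ± 0.18 in the knockdown (SD, n = 2), a ratio of 0.683 with a 95% interval on the log2 scale from -0.86 to -0.24. It missed the threshold in limma (adjusted p = 0.120) and passed with the repeat as a block (adjusted p = 0.0431). In the rescue it averaged -0.21 ± 0.23 (SD, n = 2; adjusted p = 0.782), and its difference between knockdown and rescue was -0.63 in repeat 1 and -0.05 in repeat 2 (mean -0.34, adjusted p = 0.884).

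Of the 7 members other than Flt3, 0 passed against control in the knockdown in limma, where 0.306% of all genes passed (61 of 19938), and 3 (Pdgfb, Pdgfrb and Kit, whose values are not independent of its choice) had an unadjusted p under 0.05, as 16% of all genes did. With the repeat as a block 2 of the 7 passed, Kit and Pdgfb, both lower, while 5.39% of all genes did (3.48% lower and 1.91% higher). Of the 7 other than Kit, 0 passed in the rescue, with a smallest adjusted p of 0.722; 0% of all genes passed there, 0.125% with the block, and 0 of the 7 against 7.44% of all genes had an unadjusted p under 0.05. Between knockdown and rescue 0 of the 6 other than Flt3 and Kit passed (0.0702% of all genes), and 0 with the block (0.617%). Of the 6, 1 (Pdgfrb) had an unadjusted p under 0.05 there, against 6.82% of all genes.

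Both knockdown values lay above both rescue values for 4 of the 8 genes, Flt3, Flt3l, Pdgfrb and Pdgfa, as they did for 16.5% of all genes. Flt3 is among these 4 by the choice of the group, so the count is a description and not a test against that share. They lay below both for Pdgfb, as for 15.1% of all genes. Kit, Kitl and Pdgfra overlapped. The median over the 8 genes was 0.08 in the knockdown (0.00 over all genes) and -0.15 in the rescue (-0.01 over all genes). Both medians include Flt3 and Kit, whose values chose the group.

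**Figure D2:**
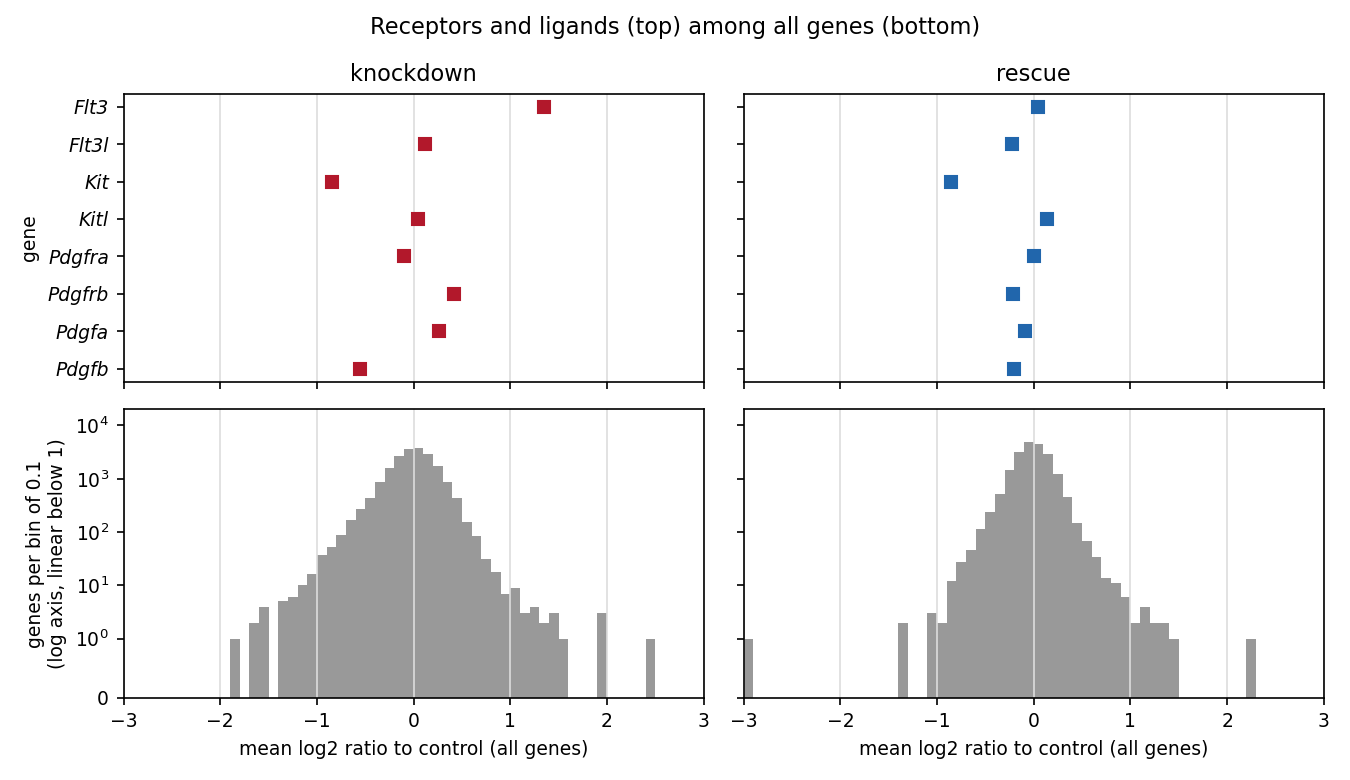
Mean log2 ratio to control of each receptor and ligand (squares, top) above the distribution of all 19938 genes (bars, bottom; genes per bin of 0.1 on a log axis that is linear below 1), with knockdown left and rescue right. Flt3 at 1.35 lies in the upper tail of the knockdown, Kit at -0.85 and -0.86 in the lower tail of both groups, and the others closer to the bulk.

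**Figure D3:**
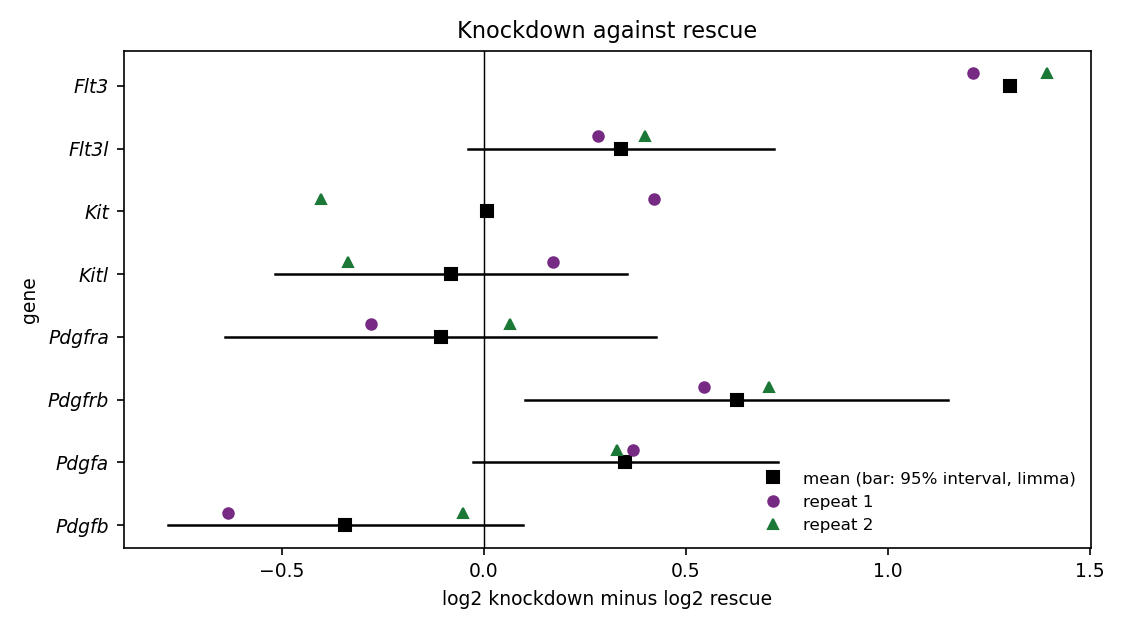
Difference of the log2 ratios, knockdown minus rescue, for each gene: squares are means over both repeats, bars the 95% interval from limma (none is drawn for Flt3 and Kit, whose values chose the group), circles repeat 1 and triangles repeat 2. The repeats lie on the same side of 0 for Flt3, Flt3l, Pdgfrb, Pdgfa and Pdgfb, and on opposite sides for Kit, Kitl and Pdgfra.

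The rest of the family and its relay were read from lists of related genes. Of the 6 other class III genes, Csf1r, its ligands Csf1 and Il34, the PDGF ligands Pdgfc and Pdgfd and the receptor-like Pdgfrl, 0 passed in limma in any of the 3 comparisons, and Pdgfc and Pdgfd were higher in the knockdown with the repeat as a block. Pdgfd, which acts through Pdgfrb, was at 0.51 and 1.01 in the knockdown, against 0.20 and 0.31 in the rescue (knockdown mean 0.76, limma adjusted p = 0.0837, and 0.0142 with the block). Pdgfc, which acts through Pdgfra, was at 0.31 and 0.76 in the knockdown, against 0.52 and 0.61 in the rescue (knockdown mean 0.54, adjusted p = 0.135, and 0.0350 with the block). Side by side, the mean log2 ratios of the PDGF ligands in the knockdown were 0.76 for Pdgfd, 0.54 for Pdgfc, 0.26 for Pdgfa and -0.55 for Pdgfb. The microglial receptor Csf1r was at -0.61 and -0.03 in the knockdown, against -0.64 and -0.20 in the rescue.

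Of 8 VEGF receptors and ligands, the nearest relatives of the class, 0 passed in limma and Vegfd was lower in the knockdown with the block (adjusted p = 0.0341; 0.266 without it). Vegfd was at -0.07 and -1.11 in the knockdown, against -0.57 and -1.06 in the rescue, with a mean of -0.59 in the knockdown and -0.81 in the rescue. The median of the 8 was 0.11 in the knockdown, against -0.05 in the rescue. Among 28 measured adaptors and enzymes that bind activated receptors 0 passed in limma, with a median of -0.05 in the knockdown, against -0.07 in the rescue. Pik3cb, a catalytic subunit of phosphoinositide 3-kinase, was at 0.54 and 1.05 in the knockdown, against -0.48 and 0.06 in the rescue, and was higher than control with the block (adjusted p = 0.00942; 0.0967 without it). It was also the one gene of this list higher in the knockdown than in the rescue with the block (adjusted p = 0.0275).

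Further down the relay, of 13 measured genes of 21 on the list of MAPK, AKT and STAT relay genes 0 passed in limma or with the block, and their medians were 0.04 in the knockdown and 0.00 in the rescue. Means of these 13 ran from -0.27 (Pdpk1, the kinase that activates AKT) to 0.28 (Stat5a) in the knockdown. Of 28 feedback and early target genes 0 passed in limma. With the block 1 of the 28 was higher than control in the knockdown (1.91% of all genes) and 1 lower (3.48% of all genes). These were Ier3, higher (adjusted p = 0.0407, and 0.140 without the block), and Egr2, lower (adjusted p = 0.0321, and 0.192 without it). Medians of the 28 were 0.04 in the knockdown and 0.14 in the rescue. Egr1, an early transcription factor, was at -0.41 and -0.16 in the knockdown, against 0.48 and 0.75 in the rescue (difference of means with the block, adjusted p = 0.0407; 0.222 without it). Egr2 was at -1.71 and -0.16 in the knockdown, against 0.23 and 0.45 in the rescue, and the cell cycle gene Ccnd1 was at -0.22 and 0.05 in the knockdown, against -0.47 and -1.06 in the rescue.

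Of 11 genes that process or bind the ligands, such as the protease Furin, 0 passed in limma. Nrp1, a co-receptor for VEGF and semaphorins that also binds PDGF, was at -0.18 and -0.99 in the knockdown, against 0.24 and -0.05 in the rescue, and was lower than control with the block (adjusted p = 0.0330; 0.198 without it). Adam17, which can release the soluble form of Kitl, was at 0.29 and 0.34 in the knockdown, against 0.08 and 0.32 in the rescue (knockdown adjusted p = 0.264).

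Markers of the cells that usually carry these receptors were set beside them; their part in the results was not tested. For Flt3, 13 mast cell and blood progenitor markers had medians of 0.05 and 0.15 in the knockdown, against 0.03 and 0.02 in the rescue. The highest knockdown mean among those 13 was 0.32, against 1.35 for Flt3. Microglia markers, 13 measured, had medians of -0.35 and -0.01 in the knockdown, against -0.36 and -0.14 in the rescue, and their highest knockdown mean was 0.27.

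For Kit, interneuron markers were low in both groups. Their medians over 17 genes were -0.13 and -0.66 in the knockdown, against -0.24 and -0.50 in the rescue, and 9 of the 17 lay below control in both knockdown samples (31.1% of all genes) and 10 in both rescue samples (29.8% of all genes). Cck, a neuropeptide, fell in the knockdown (mean -1.25, limma adjusted p = 0.0219) and was at 0.29 and 0.24 in the rescue. With the block 8 of the 17 were lower in the knockdown (3.48% of all genes) and 1 in the rescue (0.0652% of all genes), Gad1, which makes the transmitter GABA. Gad1 was at -0.65 and -1.14 in the knockdown, against -0.84 and -0.91 in the rescue, close to Kit in each sample.

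For Pdgfrb, pericyte markers (14 genes) had medians of -0.06 and 0.24 in the knockdown, against 0.07 and -0.10 in the rescue, and fibroblast markers (14 genes) of -0.01 and 0.39 in the knockdown, against 0.07 and -0.05 in the rescue. Both lists were highest in knockdown repeat 2, as Pdgfrb was and as were several other lists, among them the VEGF genes and the endothelial markers. Rgs5, a pericyte gene, was at 0.30 and 0.51 in the knockdown, against -0.14 and -0.22 in the rescue. Col6a1, a collagen of fibroblasts, was at 0.46 and 1.03 in the knockdown, against 0.04 and -0.03 in the rescue. It was 1 of 2 fibroblast markers, with Ogn, higher than control in the knockdown with the block (adjusted p = 0.0213; 0.0886 without it).

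For Pdgfra, 14 oligodendrocyte precursor markers had medians of 0.09 and -0.03 in the knockdown, against -0.06 and -0.01 in the rescue, and Tnr alone was lower in the knockdown with the block (mean -0.56, adjusted p = 0.0450; 0.129 without it). Olig1, a factor of the oligodendrocyte lineage, was at 0.03 and -0.67 in the knockdown, against -0.16 and -1.15 in the rescue. Beside Flt3l and Pdgfa, 13 astrocyte markers had medians of 0.28 and 0.34 in the knockdown, against -0.08 and -0.03 in the rescue, and for 11 of the 13 both knockdown values lay above both rescue values (16.5% of all genes). In limma 0 of the 13 passed, and 3 were higher in the knockdown with the block (1.91% of all genes). For Pdgfb, 11 endothelial markers had medians of 0.02 and 0.22 in the knockdown, against 0.11 and -0.08 in the rescue, and 13 excitatory neuron markers of -0.33 and -0.56 in the knockdown, against -0.09 and -0.03 in the rescue. With the block 1 of these 13 was higher (1.91% of all genes) and 4 were lower (3.48% of all genes) than control in the knockdown.

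**Figure D4:**
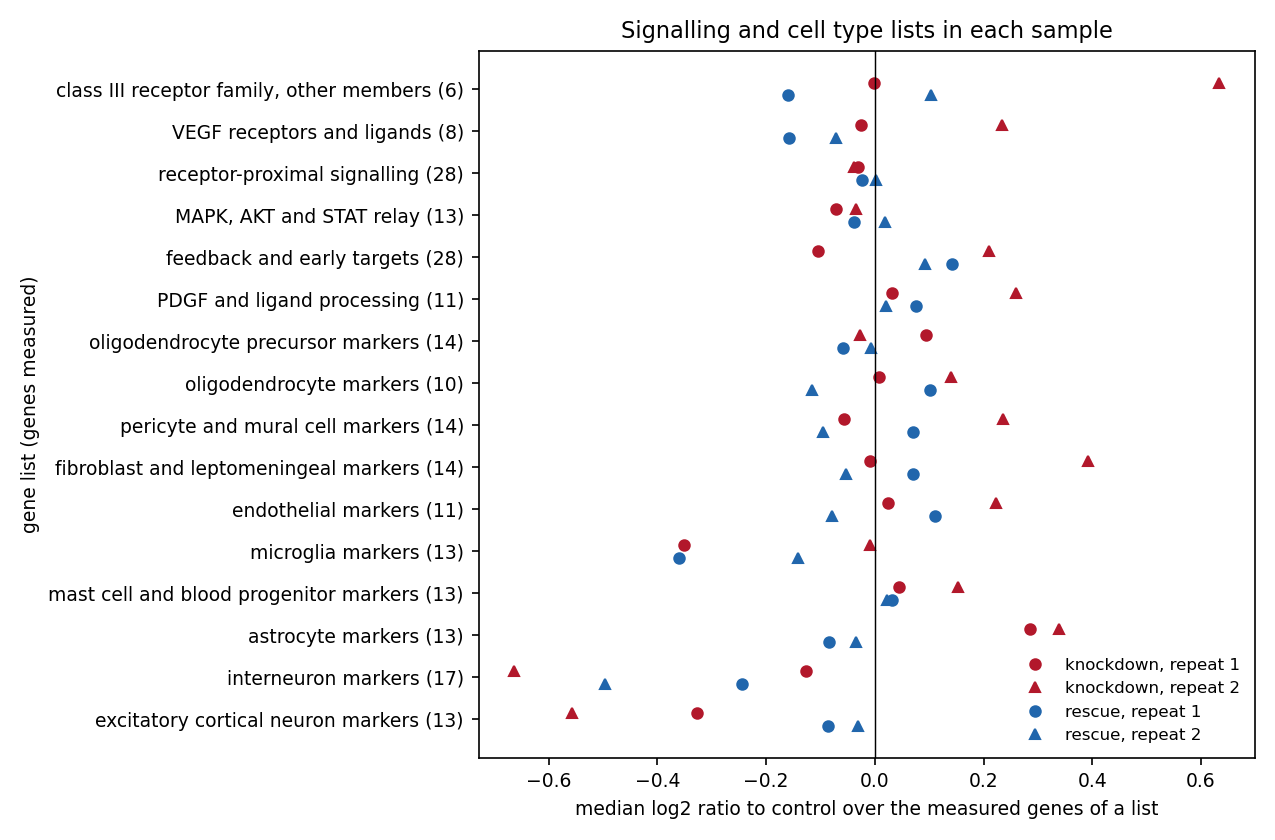
Median log2 ratio to control over the measured genes of each signalling and cell type list, per sample, with knockdown in red above rescue in blue, repeat 1 as circles and repeat 2 as triangles. Interneuron markers lie below control in all 4 samples, as Kit does, and astrocyte markers lie above control in both knockdown samples at 0.28 and 0.34.

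The genes nearest to Flt3 and to Kit were found by Euclidean distance over the 4 log2 ratios among 17146 genes. The 5 nearest to Flt3 were Vamp1 (distance 0.226), Tmem25 (0.275), Map1a (0.392), Maged2 (0.474) and Phospho1 (0.481), beside a median distance of 1.95. Vamp1, a SNARE of synaptic vesicles, was at 1.38 and 1.61 in the knockdown, against 0.07 and 0.04 in the rescue. Map1a, a microtubule-associated protein, was at 1.27 and 1.26 in the knockdown, against -0.12 and -0.20 in the rescue. The 5 nearest to Kit were Gad1 (0.240), Ap2a2 (0.261), Fam189b (0.292), Lor (0.306) and Atp6v1e1 (0.315). Ap2a2, a subunit of the endocytic AP-2 adaptor, was at -0.53 and -1.31 in the knockdown, against -0.79 and -1.07 in the rescue. With 4 samples that share control arrays, such likeness is a description.

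**Figure D5:**
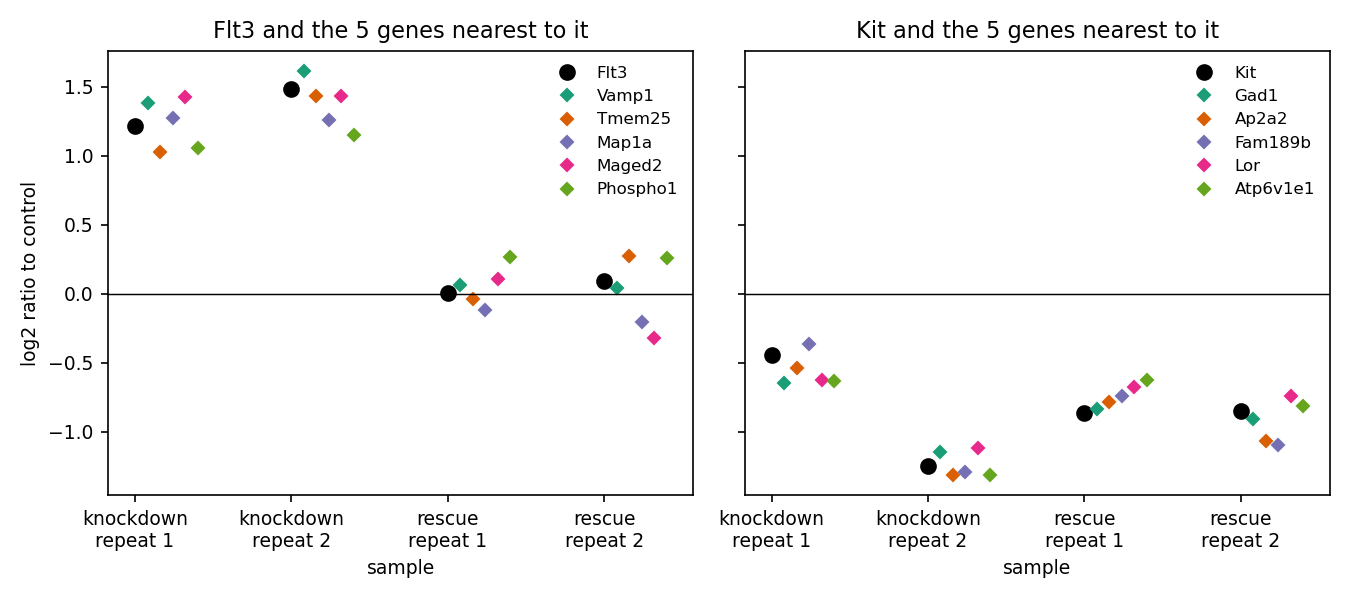
Log2 ratio to control in each sample for Flt3 (left, black circles) and Kit (right, black circles) with the 5 genes nearest to each (coloured diamonds, shifted sideways for legibility). The genes near Flt3 are all above 1 in both knockdown samples, and those near Kit are below 0 in all 4 samples.

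Receptor genes of this class lie beside their relatives on the chromosome: in the RefSeq order of GRCm38.p6, Kdr, a VEGF receptor, is the second gene after Kit, and Csf1r is the next gene after Pdgfrb. Kdr was at -0.52 and 0.61 in the knockdown, against 0.38 and 0.24 in the rescue, so its knockdown samples lay on either side of control. Csf1r, given above, lay below control where Pdgfrb was above it in the knockdown. Of 32 genes within 2 places of a member, 9 were measured, and 0 of them passed in limma in any comparison, with means from -0.32 to 0.26 in the knockdown and from -0.42 to 0.31 in the rescue. Flt3, at 1.35, had Urad as its measured neighbour, at 0.31 and -0.10 in the knockdown, against 0.39 and -0.22 in the rescue.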

How the data were processed

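RNA of 4 samples, 2 of calmodulin knockdown and 2 of rescue, was read on Affymetrix mouse Gene 1.0 ST arrays. Each deposited value is a linear ratio of the test array to the control array run in that repeat, as the authors deposited it, per the labels. Background correction, summarization, normalization and genome build: not given in the sources used here. Both control arrays were left out (not analysed here). Column medians of the ratio lay between 0.9952 and 1.006. Precision is limited by the number of arrays.

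Of 35399 probe sets, 21789 had exactly 1 symbol in the platform annotation, 1621 several and 11989 none listed; 21698 symbols were matched by Entrez identifier to RefSeq names (0 changed). The ratios were put on the log2 scale and averaged per symbol, giving 19938 genes. With R 4.3.3, limma 3.58.1 (two-sided moderated tests, tested on simulated data) fitted a coefficient per group without intercept on all 4 columns, with residual degrees of freedom of 2 and a prior of 6.11. Adjustment was by Benjamini-Hochberg over the 19938 genes, threshold 0.05.

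Samples with the same number carry the same labelled date and are pairs; their deviations from the group means correlated at 0.305 over genes. A blocked fit, by repeat, is printed where it changes a call on a tested member, and for the lists by its counts. That block removes a spread which includes the control array's, so its calls against control are not protected from error in that array. Other alternatives were quantile normalization, median centring, single probe sets, 1 group alone, each replicate left out, and 2791 predicted, olfactory and segment genes left out.

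The members and all lists were chosen with earlier results of these data known. Named were all 8 members and the 5 genes nearest to Flt3 and to Kit outside predicted, olfactory and segment genes. List genes given with values were past the threshold or else among the 2 farthest from control in knockdown or in rescue. Not every list gene that met this rule is named.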

Additional observations from a re-analysis of the deposited data

How the results depend on the processing

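The count of genes past the threshold depended on the fit, and some member values depended on 1 replicate. Against the 61 genes of knockdown against control, counts were 20 after quantile normalization, 1074 with the replicate block, 12 with the knockdown columns alone, 119 with predicted and segment genes left out, and between 12 and 1272 with a replicate left out, highest without knockdown repeat 1. Against the 0 genes of rescue against control (1484 at an unadjusted p under 0.05 in limma), counts were 1 after quantile normalization, 25 with the replicate block, 176 with the rescue columns alone, and between 0 and 176 with a replicate left out. Against the 14 genes of knockdown against rescue, counts were 2 after quantile normalization, 4 after median centring, 4 with every probe set tested, 123 with the replicate block, and between 0 and 350 with a replicate left out. The causes were not tested.

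Of 232 member values under an alternative, 222 kept their direction or stayed within the replicate spread. The tested ones among these 222 did not cross the threshold, while values given without a test were held only against the spread. Another 4, of Kit, Pdgfb and Pdgfrb against control, came to pass, as given with those genes. The other 6, of Kitl and Pdgfra, changed sign, all with a replicate left out. Kit between knockdown and rescue, counted as within the replicate spread, also changed sign under some alternatives, among them median centring, and ranged from -0.39 to 0.41. In the knockdown Kitl ranged from -0.14 to 0.24 and Pdgfra from -0.41 to 0.21, in the rescue Pdgfra ranged from -0.13 to 0.14, and between knockdown and rescue Kitl ranged from -0.27 to 0.10 and Pdgfra from -0.42 to 0.20. Flt3 in the knockdown ranged from 1.21 to 1.48. With the replicate block, no call on a tested member changed other than Kit and Pdgfb in the knockdown. A fit that leaves out a replicate assumes that the lone sample varies like the other group. Of 96 list medians under an alternative, 78 moved by less than the replicate spread and 18 by more. For members and lists alike, staying within that spread with a replicate left out says little about how firm a value is. Each group holds a pair of replicates, so leaving out either moves a gene's mean by no more than their SD, whatever the values. Median centring shifted all genes of a group by the same small amount, so it is a weak check too. The block, single probe sets, 1 group alone and the left-out genes cannot move a member's mean, since each member has 1 probe set. Against control, leaving out a replicate of the other group cannot move it either. In those settings only a member's adjusted p can change, so many of the 222 kept their value by construction. Without intensities, no probe set could be left out as dim.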
